A study of Mus musculus with 6 samples.

Results

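The axon guidance families of semaphorins, plexins, ephrins, Eph receptors, netrins, SLIT ligands and UNC5 receptors were examined in aortic endothelial cells of mice infused with angiotensin II (AngII) or saline. Members were taken by gene symbol from the deposited count table, with at least 1 count in at least 3 samples. The table holds 17067 genes, and among them 60 matched the symbols and 54 met the count rule. They were 32 ligands, 21 receptors and Unc50, a gene of an inner nuclear membrane protein that matched by spelling and is no netrin receptor. Just inside the count rule were Epha6 and Ntn1, with a count in 3 samples. Epha1, Epha8, Ntn5 and Unc5d, with a count in 2 samples, and Ephb1 and Unc5cl, with a count in 1 sample, were just outside it.

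Messenger RNA was sequenced in 6 samples from wild-type C57BL/6 mice, 3 per group. From the age of 8 weeks, osmotic pumps under the skin released AngII at 1000 ng per kg per minute for 14 days, while sham-operated controls received pumps with 0.9% saline. Aortic pieces of 2 mm were then laid on matrigel, fed with medium that held 20% serum from calf fetuses, heparin and endothelial growth factor, and endothelial cells grew out from 5 to 7 days on. The cells were therefore read after culture without the infusion, and the labels do not say whether replicates came from separate mice or cultures, so a p-value here reads only how far these samples spread, which may be technical.

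Guidance ligands were named for steering growing nerve fibres, and the same molecules shape blood vessels. Semaphorins signal through plexins, the secreted class 3 members mostly with a neuropilin as co-receptor, and commonly make cells pull back. Ephrins are bound to the cell surface and meet Eph receptor kinases on a neighbouring cell. Ephrin-B2 marks arterial and EphB4 venous endothelium. SLIT ligands signal through ROBO receptors and netrins through neogenin, DCC and UNC5 receptors, and ROBO4 and UNC5B are the members of these receptor groups best known in endothelium.

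Total counts lay between 21154724 and 23004780 for saline and between 22646065 and 25141992 for AngII, and 42 of the 54 members passed the count filter, Unc50 among them. By edgeR's quasi-likelihood test 9 members rose and 17 fell with AngII at an adjusted p below 0.05. With the GC content and length trend removed the split was 12 higher and 14 lower, beside 3538 and 3486 of all tested genes. The 26 called members were 61.9% of those tested, beside 57.6% of all 12277 tested genes, of which 29.0% were higher and 28.6% lower. The share called is thus near that of the whole table. The median log2 fold change of the tested members was -0.14, and of all tested genes 0.0001. Among guidance genes, Unc50 left out, with a mean of at least 1 CPM (counts scaled to a common library total), a cutoff that does not look at the groups, 23 of 33 were called, 8 higher and 15 lower, beside 59.4% of all genes above it. Saline and AngII samples were apart in 28 tested members, 66.7%, beside 62.7% of all tested genes, of which 31.3% lay higher and 31.4% lower in AngII. A call with an absolute log2 fold change of at least 0.5 was made for 11 of 41 tested guidance genes (26.8%), 4 higher and 7 lower, beside 13.2% of all tested genes, 5.96% higher and 7.26% lower. In bulk RNA, fewer cells of a type and less RNA per cell cannot be told apart.

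The endothelial label was checked against 10 markers, of which 9 were analysed here. Their summed level was 5270.4 to 5352 CPM in saline and 5155 to 5648 CPM in AngII samples, with Pecam1 the highest. Of these markers 3 rose and 5 fell (88.9% called). Of all tested genes 57.6% were called, 29.0% higher and 28.6% lower, and each count of markers below is read beside that share. Markers of smooth muscle cells and pericytes summed to 16.2 to 17.9 CPM in saline and 7.68 to 9.38 CPM in AngII samples. The largest part of that change was Notch3, at 8.97 ± 0.226 CPM in saline and 2.29 ± 0.144 in AngII. Of the 10 markers in this list 8 lay below a mean of 1 CPM, and 3 of the 4 tested fell. Of these 3, Des and Myh11 passed the count filter only through the saline samples, where they were higher. Pdgfrb did not pass (5.01 ± 0.655 CPM in saline and 5.64 ± 0.728 in AngII, edgeR adjusted p = 0.27). Fibroblast markers summed to 6.62 to 7.95 and 13.1 to 14.99 CPM, with 2 of 2 tested higher, and lymphatic endothelial markers to 219 to 225 and 314 to 351 CPM, with 3 of 3 tested higher. The lymphatic sum came almost wholly from Flt4 and Lyve1, while Prox1 (0 to 0.141 CPM) and Ccl21a (0 to 0.0420 CPM) lay near 0 in both groups, and 4 of the 6 fibroblast markers lay below 1 CPM. Leukocyte markers summed to 271 to 275 and 264 to 279.7 CPM, nearly all of it Cd68, and 1 of 2 tested was higher. Adipocyte markers summed to 8.03 to 9.88 and 14.3 to 18.6 CPM, nearly all of it Fabp4, with 1 of 1 tested higher. The other adipocyte marker analysed, Plin1, lay at 0 to 0.126 CPM over the 6 samples. Mesothelial and epithelial markers summed to 3.18 to 3.55 and 1.56 to 1.72 CPM with 1 of 1 tested lower. Schwann cell and neuron markers summed to 1.68 to 2.56 and 2.89 to 3.20 CPM, with 1 of 3 tested higher. No marker in the table was at 0 in all 6 samples. The part of these lists in the results on guidance genes was not tested.

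Levels of different genes were compared as CPM per kb of exon. In saline samples the highest member was Plxnb2, the receptor of the semaphorin Sema4c and of angiogenin, at 70.9 ± 1.36 CPM per kb (SD, n = 3). Next came the endothelial plexin Plxnd1 at 43.2 ± 0.653, the venous receptor Ephb4 at 42.1 ± 0.795, and the ligand Efna1 at 32.3 ± 0.588. Plxnd1 and Ephb4 did not differ beyond the sum of their SDs in saline. In AngII samples Plxnd1 came highest at 61.3 ± 3.88 and Plxnb2 followed at 42.1 ± 1.44 CPM per kb. Over all 6 samples the leading members of the other families were Epha2, Sema6b, Ntn4, Sema3f, Efnb2, Unc5b and Slit2. With the length of the longest transcript in place of all exons, Plxnb2, Plxnd1, Ephb4 and Efna1 held the same ranks 1 to 4, while Slit2 moved from rank 20 to 14 and Sema3a from 27 to 22.

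**Figure D1:**
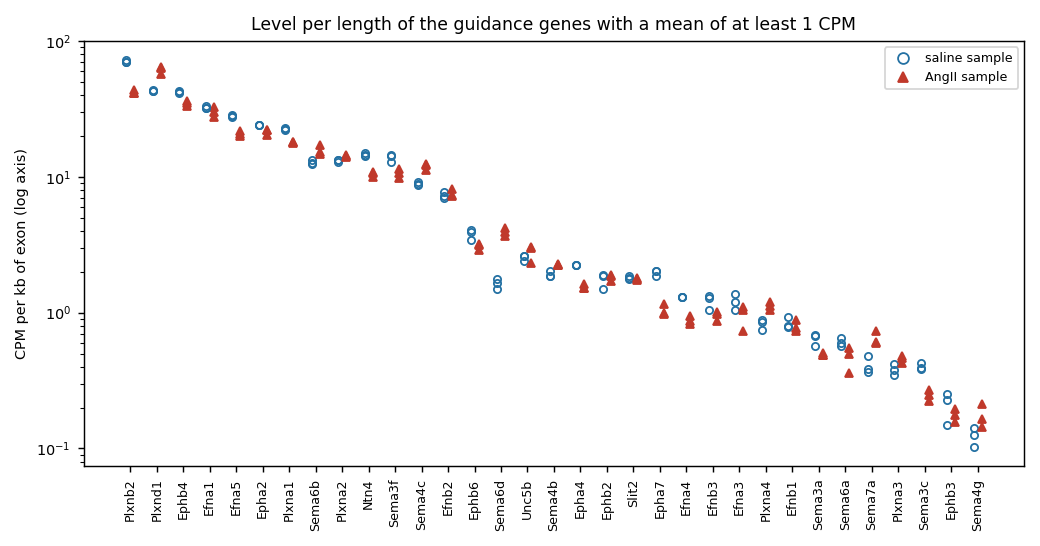
Level of each guidance gene with a mean of at least 1 CPM, in CPM per kb of exon on a log axis, ordered by its mean over all samples. Circles are the 3 saline samples and triangles the 3 AngII samples; Plxnb2 and Plxnd1 stand highest and exchange their order, and Sema6d shows the widest gap between groups among these genes.

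Of the secreted class 3 semaphorins 3 of 5 tested members fell and 0 rose (60% called). Of the class 4 to 7 semaphorins, which are bound to the membrane, 5 of 9 tested members rose and 1 fell (66.7% called). Both shares are near the 57.6% of all tested genes, and the difference between the classes was not tested. Sema6d rose the most, 2.40-fold. Summed over the family, class 3 levels went from 15.2 ± 0.907 to 11.7 ± 0.788 CPM per kb and class 4 to 7 levels from 26.7 ± 0.0486 to 35.5 ± 2.14 CPM per kb (SD, n = 3).

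Sema6d encodes a transmembrane semaphorin that binds plexin A1 and takes part in heart development. Its samples stood at 17.4, 18.6 and 15.7 CPM in saline and at 44.3, 41.6 and 38.5 CPM in AngII. Every AngII sample was more than the highest saline sample, and the groups were far apart. The log2 fold change was 1.26 ± 0.0671 (SE; edgeR adjusted p = 1.7e-11), and it stayed between 1.20 and 1.32 under the alternatives. In saline Sema6d took rank 21 of the 53 guidance members by level per length and in AngII rank 14. Its relative Sema6b, a ligand of plexin A4, was the leading membrane semaphorin per length, at 12.8 ± 0.501 CPM per kb in saline and 15.7 ± 1.23 in AngII, beside 13.8 ± 0.847 and 10.7 ± 0.845 for the secreted Sema3f. Sema6b samples read 50.2, 49.2 and 53.0 CPM in saline and 67.7, 60.4 and 58.5 CPM in AngII. Those groups were apart by a smaller gap, and Sema6b rose 1.22-fold (edgeR adjusted p = 7.9e-05), or by 0.51 in place of 0.29 on the log2 scale after removal of a trend on GC content and gene length.

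Among the other membrane semaphorins, Sema4c, the ligand of plexin B2, measured 40.9, 41.9 and 40.3 CPM in saline and 56.6, 57.3 and 51.7 CPM in AngII. The groups did not overlap, and Sema4c rose 1.34-fold (edgeR adjusted p = 2.8e-07). Sema4b rose from 10.8 ± 0.526 to 12.7 ± 0.212 CPM (edgeR adjusted p = 0.010), a call that DESeq2 did not make (adjusted p = 0.0521). Sema7a, which is held in the membrane by a lipid anchor and binds plexin C1 and integrin beta 1, rose from 1.36 ± 0.201 to 2.13 ± 0.240 CPM. Sema6a, a ligand of plexins A2 and A4, went the other way, from 5.33 ± 0.383 to 4.10 ± 0.845 CPM (edgeR adjusted p = 0.023). The Sema6a call was lost in DESeq2 (adjusted p = 0.0615) and without saline replicate 1 (0.0826), saline replicate 3 (0.0506) or AngII replicate 3 (0.160). Sema4g stood at 1.07 ± 0.166 and 1.504 ± 0.311 CPM and did not pass (edgeR adjusted p = 0.084), although it did with the GC content and length trend removed (0.0415).

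Sema3f, which repels cells through neuropilin 2, was the leading class 3 member. Its samples gave 74.0, 74.8 and 66.8 CPM in saline and 59.8, 55.2 and 51.1 CPM in AngII. All AngII samples were lower than all saline samples, a 1.30-fold fall (log2 fold change -0.38 ± 0.0529, SE; edgeR adjusted p = 6.9e-06), or -0.22 with the GC content and length trend removed. Sema3a, the classical ligand of neuropilin 1, fell from 8.93 ± 0.942 to 6.88 ± 0.138 CPM, and Sema3c, which has a role in the outflow tract of the heart, fell from 2.86 ± 0.152 to 1.76 ± 0.156 CPM (n = 3; edgeR adjusted p = 0.0028 and 0.0011). Sema3e, the direct ligand of plexin D1, was not tested, with 0 to 0.260 CPM in every sample.

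Plexins are the semaphorin receptors. Of 8 tested members Plxnd1, Plxna4 and Plxna2 rose, and Plxnb2, Plxna1 and Plxnb3 fell, 75% called beside 57.6% of all tested genes, which also divided about evenly between higher (29.0%) and lower (28.6%). The plexin sum was 151 ± 2.41 CPM per kb in saline and 137 ± 5.34 in AngII, and without Plxnb2 and Plxnd1 it was 37.2 ± 0.718 and 34.0 ± 0.426. Plxnb2 (chromosome 15, 89155549 to 89180788, GRCm38) read 543, 559 and 539.8 CPM in saline and 338, 319 and 318 CPM in AngII. Its groups were far apart, and it fell 1.68-fold (log2 fold change -0.75 ± 0.0326, SE; edgeR adjusted p = 1.2e-12). Plxnd1 (chromosome 6, 115954811 to 115995005), which guides vessel patterning in the mouse embryo, read 315, 320.4 and 311 CPM in saline and 468, 459 and 415 CPM in AngII. It rose 1.42-fold without overlap of the groups (log2 fold change 0.50 ± 0.0386, SE; edgeR adjusted p = 2.8e-09). The ratio of Plxnd1 to Plxnb2 per length was 0.614, 0.606 and 0.609 in the saline samples and 1.46, 1.52 and 1.38 in the AngII samples. Plxnb2 was thus the more abundant plexin in each saline sample and Plxnd1 in each AngII sample. Over the alternatives other than the test against 1.5-fold, the log2 fold change of Plxnb2 lay between -0.78 and -0.64. That of Plxnd1 lay between 0.47 and 0.70, so its size depends on the processing by more than its SE.

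The A plexins, which serve class 3 semaphorins together with neuropilins and class 6 semaphorins directly, differed among themselves. Plxna1 fell from 204 ± 3.20 to 163 ± 1.12 CPM, by 0.33 on the log2 scale, or by 0.22 with the GC content and length trend removed. Plxna2, at a like level in CPM, rose by only 1.08-fold, from 227 ± 5.65 to 245 ± 4.26 CPM (edgeR adjusted p = 0.0061). Plxna4 was 1.36-fold higher, at 11.7 ± 0.994 CPM in saline and 15.9 ± 1.04 in AngII (edgeR adjusted p = 9.9e-05). Plxna3 did not pass (3.01 ± 0.282 and 3.60 ± 0.215 CPM, edgeR adjusted p = 0.11), except with the GC content and length trend removed (0.0459). Plxnb3, below 1 CPM on average, fell from 0.933 ± 0.112 to 0.517 ± 0.115 CPM (edgeR adjusted p = 0.021). Its counts were 20, 18 and 24 in saline and 15, 9 and 13 in AngII. Only the saline group, where Plxnb3 was higher, met the minimum of the count filter in every sample. Plxnb3 is among the 17 members that fell and the 7 of these with a log2 fold change of at most -0.5. The Plxnb3 call was lost in DESeq2 (adjusted p = 0.0870) and without saline replicate 3 (0.0754) or AngII replicate 2 (0.0889). Exons of Plxna1 and Sema4c share 10.7% and 7.27% of their length with genes on the opposite strand, and whether counting used strand is not given in the sources used here.

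The 250 bases before the annotated starts of Plxnb2, Plxnd1 and Sema6d are shown because these are the pair that exchanged places and the member with the largest rise among those above 1 CPM. The sequences are from RefSeq on GRCm38.p6, read 5′ to 3′ on the gene's strand, with matches to the GC box GGGCGG, or its reverse CCGCCC, in capitals. They lie at chr15:89180789-89181038 on the minus strand for Plxnb2, chr6:115995006-115995255 on the minus strand for Plxnd1 and chr2:124089719-124089968 on the plus strand for Sema6d. For Plxnb2 and Sema6d this is the first of 2 listed starts.
Plxnb2: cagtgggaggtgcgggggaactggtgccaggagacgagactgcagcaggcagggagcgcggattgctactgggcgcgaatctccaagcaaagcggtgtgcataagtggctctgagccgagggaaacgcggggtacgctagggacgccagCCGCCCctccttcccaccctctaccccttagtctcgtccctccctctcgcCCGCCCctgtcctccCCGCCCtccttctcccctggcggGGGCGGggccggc
Plxnd1: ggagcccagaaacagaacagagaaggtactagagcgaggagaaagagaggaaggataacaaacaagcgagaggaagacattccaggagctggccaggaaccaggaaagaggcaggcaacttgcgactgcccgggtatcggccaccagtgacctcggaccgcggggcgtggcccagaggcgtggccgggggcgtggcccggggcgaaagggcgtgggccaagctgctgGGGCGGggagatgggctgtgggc
Sema6d: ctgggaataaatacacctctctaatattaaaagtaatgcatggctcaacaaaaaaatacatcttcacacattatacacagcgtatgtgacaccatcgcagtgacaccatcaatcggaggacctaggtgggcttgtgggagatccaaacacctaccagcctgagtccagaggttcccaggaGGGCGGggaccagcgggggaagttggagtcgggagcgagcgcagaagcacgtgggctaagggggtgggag

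These windows held 4 GC boxes for Plxnb2 and 1 each for Plxnd1 and Sema6d, and their G and C content was 69.2%, 64.8% and 52.4%. RefSeq starts were at hand for 45 of the 53 guidance members, 59 starts in all. A GC box, searched on both strands in 250 bases, stood before 34 of 43 starts of tested members (79.1%) and before 57.1% of the 12226 starts of all tested genes. It was found before 10 of 12 starts of members that rose and 11 of 14 starts of members that fell, so its presence did not part the directions. The E-box CACGTG was found before 2 of 43 starts of tested members (4.65%), Sema6d among them, and 8.15% of all tested starts. The AP-1 element TGANTCA stood before 4.65% and 4.61%, the ETS element CCGGAAG before 2.33% and 13.5%, and the ATF4 composite element TGATGNAA before 0 and 2.06%. By direction, the E-box and the AP-1 element each stood before 2 of 12 starts of members that rose and 0 of 14 that fell. The ETS element stood before 0 of 12 and 1 of 14. A difference between directions was not tested on these small numbers. A match is a description of the letters in the window.

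**Figure D2:**
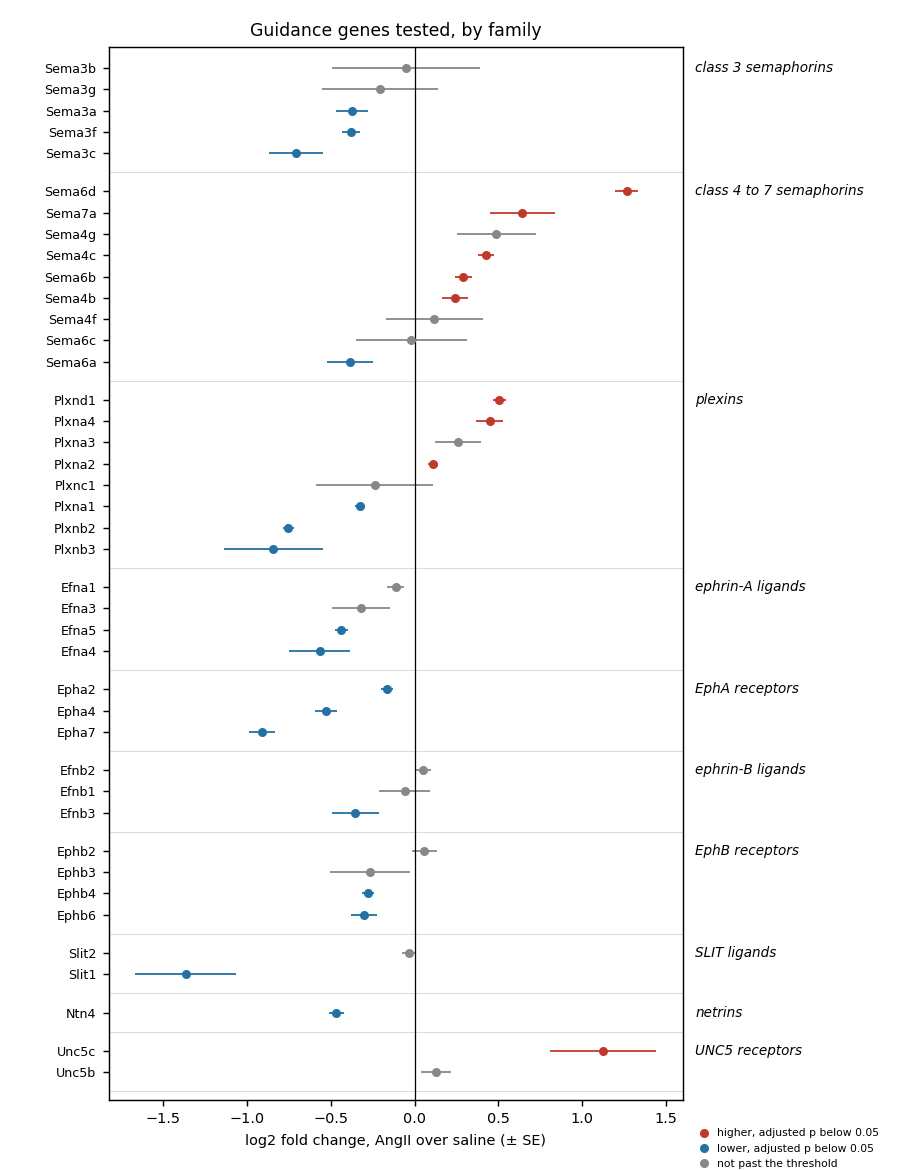
Log2 fold change of AngII over saline, with its standard error, for the 41 guidance genes tested, grouped by family. Red points rose and blue points fell at an edgeR adjusted p below 0.05 and grey points did not pass; class 3 semaphorins, EphA receptors and ephrin-A ligands hold no red point, while the class 4 to 7 semaphorins hold 5.

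Among Eph receptors and ephrins, the 3 tested EphA receptors fell, as did 2 of 4 EphB receptors (50%), 2 of 4 tested ephrin-A ligands (50%) and 1 of 3 ephrin-B ligands (33.3%), and 0 rose. Apart from the EphA receptors these shares lie below the 57.6% of all tested genes that were called. Summed levels were 28.3 ± 0.163 and 24.1 ± 1.08 CPM per kb for EphA receptors, 47.9 ± 1.07 and 39.8 ± 1.35 for EphB receptors, and 63.1 ± 1.19 and 52.7 ± 1.72 for ephrin-A ligands in saline and AngII. Ephrin-B ligands stood at 9.39 ± 0.383 and 9.35 ± 0.398 CPM per kb.

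Epha7, a receptor of A ephrins, fell the most among them. Its saline samples read 20.0, 18.4 and 20.0 CPM and its AngII samples 9.70, 9.83 and 11.5 CPM. The groups lay far apart, a 1.88-fold fall (log2 fold change -0.91 ± 0.0775, SE; edgeR adjusted p = 1.2e-08). Epha4, which binds ephrins of both classes, read 18.0, 18.1 and 18.0 CPM in saline and 12.2, 12.1 and 13.1 CPM in AngII. Its samples were tight within groups and apart between them, 1.44-fold lower with AngII (log2 fold change -0.53 ± 0.0668; edgeR adjusted p = 1.9e-06). Efna5, a ligand of both receptors, fell from 113 ± 2.45 to 83.7 ± 3.58 CPM (1.35-fold; edgeR adjusted p = 1.2e-08).

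Epha2, the main Eph receptor of the A class in endothelium, was far more abundant. It read 112, 112 and 113 CPM in saline and 94.8, 103 and 103 CPM in AngII. Its groups were apart by little, a log2 fold change of -0.16 ± 0.0368 (edgeR adjusted p = 9.1e-04), and the call was lost with the GC content and length trend removed (-0.06, edgeR adjusted p = 0.172). Its ligand Efna1 read 58.6, 60.4 and 58.4 CPM in saline and 59.3, 54.9 and 50.1 CPM in AngII. AngII replicate 1 lay among the saline samples and Efna1 did not pass (edgeR adjusted p = 0.065), while without that replicate it did (-0.18, adjusted p = 0.00217), in a range of 0.00217 to 0.357 over the alternatives other than the test against 1.5-fold. Efna4 fell from 2.08 ± 0.00790 to 1.40 ± 0.0980 CPM (edgeR adjusted p = 0.013), a call lost in DESeq2 (0.0694) and without AngII replicate 3 (0.0509). Efna3 was 2.93 ± 0.408 and 2.34 ± 0.492 CPM and did not pass. Antisense genes cover 14.1% of the exons of Efna3 and 10.5% of those of Efna4.

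Ephb4 and its ligand Efnb2, the venous and arterial pair, were not alike. Ephb4 stood at 192, 199 and 196 CPM in saline and 167, 162 and 155 CPM in AngII. All AngII samples were lower, a 1.21-fold fall (log2 fold change -0.28 ± 0.0338; edgeR adjusted p = 1.2e-06), or -0.14 with the GC content and length trend removed. Efnb2 stood at 48.0, 49.8 and 53.1 CPM in saline and 49.7, 50.5 and 55.9 CPM in AngII. Its groups overlapped, and its log2 fold change was 0.05 ± 0.0503 (edgeR adjusted p = 0.41). The ratio of Ephb4 to Efnb2 per length was 5.90, 5.90 and 5.45 in saline and 4.96, 4.74 and 4.09 in AngII. Ephb6, which lacks kinase activity, fell from 14.3 ± 1.23 to 11.6 ± 0.587 CPM (edgeR adjusted p = 0.0035), but not with the GC content and length trend removed (0.0954). Ephb2 (22.2 ± 2.85 and 23.1 ± 1.20 CPM), Ephb3 (1.39 ± 0.361 and 1.17 ± 0.125 CPM) and Efnb1 (2.88 ± 0.274 and 2.76 ± 0.274 CPM) did not pass. Efnb3 fell from 3.87 ± 0.494 to 3.04 ± 0.245 CPM at an edgeR adjusted p of 0.038. That call did not hold in DESeq2 (0.127), limma-voom (0.0533), with the GC content and length trend removed (0.104), or without saline replicate 1 (0.127), saline replicate 3 (0.112), AngII replicate 2 (0.0637) or AngII replicate 3 (0.135).

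**Figure D3:**
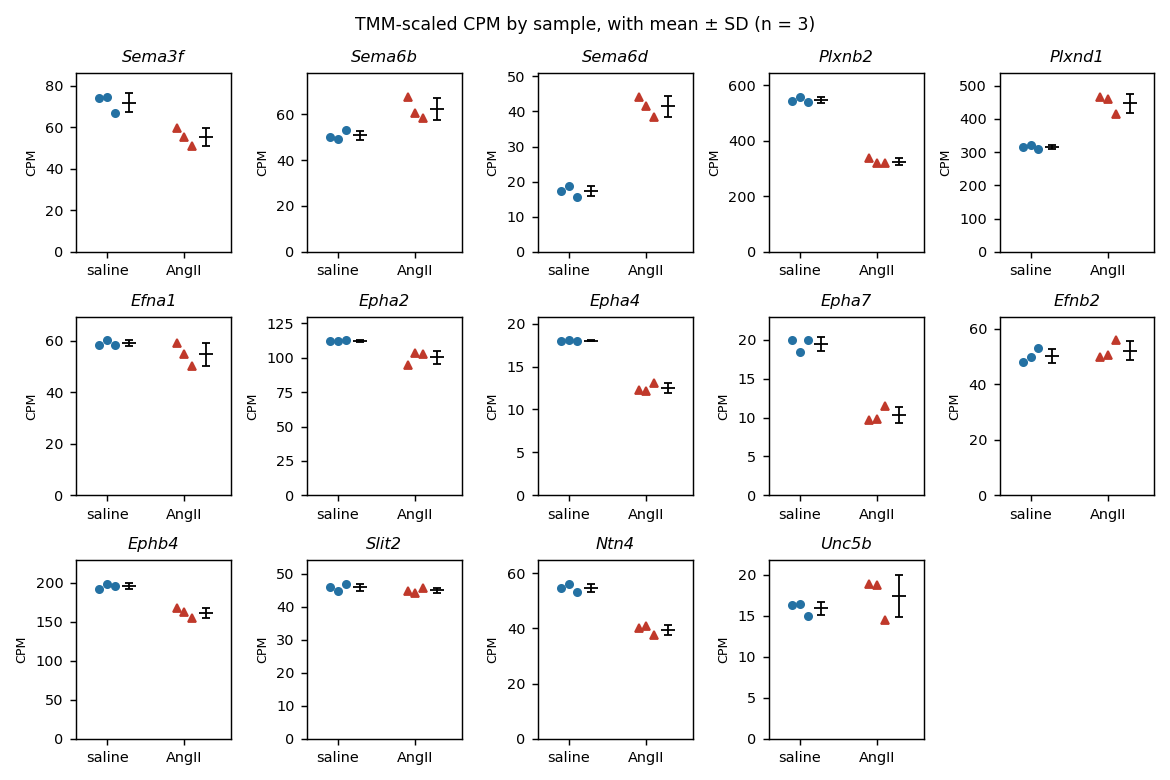
TMM-scaled CPM in each sample for 14 guidance genes, with the mean ± SD of each group beside the points (n = 3) and axes from 0. Circles are saline and triangles AngII samples; Sema6d and Plxnd1 are higher and Plxnb2, Epha4, Epha7 and Ntn4 lower in every AngII sample, while Efna1, Efnb2, Slit2 and Unc5b overlap.

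Netrins, SLIT ligands and UNC5 receptors were few. Ntn4, a netrin of basement membranes that binds laminin, fell. It read 54.6, 56.2 and 53.1 CPM in saline and 40.2, 40.9 and 37.5 CPM in AngII. The groups did not overlap, a 1.38-fold fall (log2 fold change -0.47 ± 0.0450; edgeR adjusted p = 6.1e-08). Slit2, a ligand of ROBO receptors, read 45.9, 44.8 and 47.0 CPM in saline and 44.8, 44.3 and 45.8 CPM in AngII. Its groups overlapped (log2 fold change -0.03 ± 0.0420; edgeR adjusted p = 0.55). Slit1, known mainly from the nervous system, fell from 1.35 ± 0.430 to 0.517 ± 0.0733 CPM (2.57-fold; edgeR adjusted p = 8.0e-04) on 11 to 39 counts a sample.

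Unc5b, the netrin receptor of endothelium, read 16.2, 16.4 and 14.95 CPM in saline and 18.9, 18.7 and 14.4 CPM in AngII. AngII replicate 3 lay below all saline samples and the other AngII samples above them, and Unc5b did not pass (edgeR adjusted p = 0.24). Without AngII replicate 3 its log2 fold change was 0.24 (adjusted p = 0.00593), and with the GC content and length trend removed 0.30 (adjusted p = 0.00494). Unc5c rose 2.18-fold at a low level, with 0.462 ± 0.201 CPM in saline and 1.02 ± 0.118 in AngII (edgeR adjusted p = 0.0055). Its counts were 7, 8 and 16 in saline and 25, 20 and 28 in AngII. It thus passed the count filter only through the AngII samples, where it was higher. Unc5c is among the 9 members that rose and the 4 of these with a log2 fold change of at least 0.5. Unc50, no guidance gene, was 21.7 ± 1.11 and 20.6 ± 0.976 CPM and did not pass.

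Of the 53 guidance members 20 lay below a mean of 1 CPM, and 12 of these were not tested. The untested members were Efna2, Epha5, Epha6, Epha10, Ntn1, Ntn3, Plxnb1, Sema3d, Sema3e, Sema4a, Sema4d and Sema5a, with means of 0.0290 to 0.360 CPM over the 6 samples. Sema4d is the ligand of plexin B1, and both were among them. Tested members below 1 CPM that did not pass were Plxnc1, Sema3b, Sema3g, Sema4f and Sema6c, with 3 to 30 counts a sample. Slit1, Unc5c and Plxnb3, of like level, did pass.

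Partner receptors outside these families came from a list of 18 genes, of which 17 were in the table and 9 were tested. Of these, 3 rose and 4 fell, 77.8% called beside 57.6% of all tested genes. Nrp2, the neuropilin that Sema3f binds, read 335, 346 and 338 CPM in saline and 487, 468 and 449 CPM in AngII. The groups were apart and Nrp2 rose 1.38-fold (edgeR adjusted p = 1.2e-09), whereas Nrp1 was 20.7 ± 1.13 and 19.8 ± 0.544 CPM and did not pass (0.37). Robo4, the endothelial roundabout receptor and a partner of Unc5b, read 601, 607 and 596 CPM in saline and 404, 383 and 367 CPM in AngII. All its AngII samples were lower, a 1.56-fold fall (log2 fold change -0.64 ± 0.0347; edgeR adjusted p = 2.1e-11). Robo1 was at 0 to 0.0890 CPM, and Dcc at 0 to 0.0454 CPM. Neogenin, Neo1, was high and did not pass (724 ± 17.6 and 741 ± 12.5 CPM, edgeR adjusted p = 0.37), while Flrt2, an UNC5 ligand, rose 1.20-fold. Flrt3, at 0.0867 to 0.377 CPM in saline and 0.440 to 0.623 CPM in AngII, was below the count filter, as was its relative Flrt1 at 0 to 0.227 and 0.420 to 0.712 CPM. Neither overlapped between groups, and with no filter beyond 1 count both were called higher (edgeR adjusted p = 0.0455 and 6.6e-05). Flrt3 was not called in the fits that tested it without saline replicate 2 (0.0898), saline replicate 3 (0.188) or AngII replicate 2 (0.143). Flrt1 was named after its values were seen.

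The remaining called partners were chosen after their values were seen. Robo3 fell from 52.5 ± 3.50 to 26.6 ± 1.64 CPM (1.97-fold; edgeR adjusted p = 6.1e-11). It lies 553 bases from Robo4 on chromosome 9 and on the opposite strand (37415669 to 37433246 on the minus strand, against 37401897 to 37415115 on the plus strand, GRCm38), with their ends facing each other. Whether reads past the end of Robo4 were counted for Robo3 was not tested. Itgb1 rose 1.08-fold, and Rgmb and Rgma, whose proteins bind neogenin, were 1.14-fold and 1.19-fold lower. The Itgb1 and Rgma calls were lost with the GC content and length trend removed (adjusted p = 0.321 and 0.574), and that of Rgma also in DESeq2 (0.114) and without saline replicate 1 (0.0847), saline replicate 2 (0.0633), AngII replicate 1 (0.0629) or AngII replicate 2 (0.0767).

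Intracellular effectors, the kinases, GTPases and collapsin response mediators that relay these receptors, were tested for 37 genes. Of these, 10 rose and 9 fell, 51.4%, beside 57.6% of all tested genes, with a median log2 fold change just below 0 (-0.0039). Dpysl3, a collapsin response mediator protein, rose from 151 ± 1.81 to 219 ± 2.57 CPM, Vav3, an exchange factor for small GTPases, from 55.4 ± 1.33 to 82.5 ± 1.31 CPM, and the focal adhesion kinase Ptk2 from 174 ± 1.48 to 203 ± 2.60 CPM. Rras2, a small GTPase related to the plexin substrate Rras, fell from 245 ± 6.92 to 167 ± 5.95 CPM and the actin-binding protein gene Ablim1 from 139.7 ± 1.84 to 113 ± 5.62 CPM. Dpysl5, a relative of Dpysl3, went from 2.64, 2.49 and 2.56 CPM in saline to 0.294, 0.623 and 0.440 CPM in AngII. It fell 5.65-fold, at a low level but with the groups well apart (edgeR adjusted p = 7.7e-08). Its counts were 56, 55 and 59 in saline and 7, 14 and 11 in AngII. Dpysl5 thus passed the count filter only through the saline samples, where it was higher. With Dpysl5 set aside, family members of the mediators still moved in both directions, with Crmp1 1.19-fold higher and Dpysl2 1.21-fold lower.

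**Figure D4:**
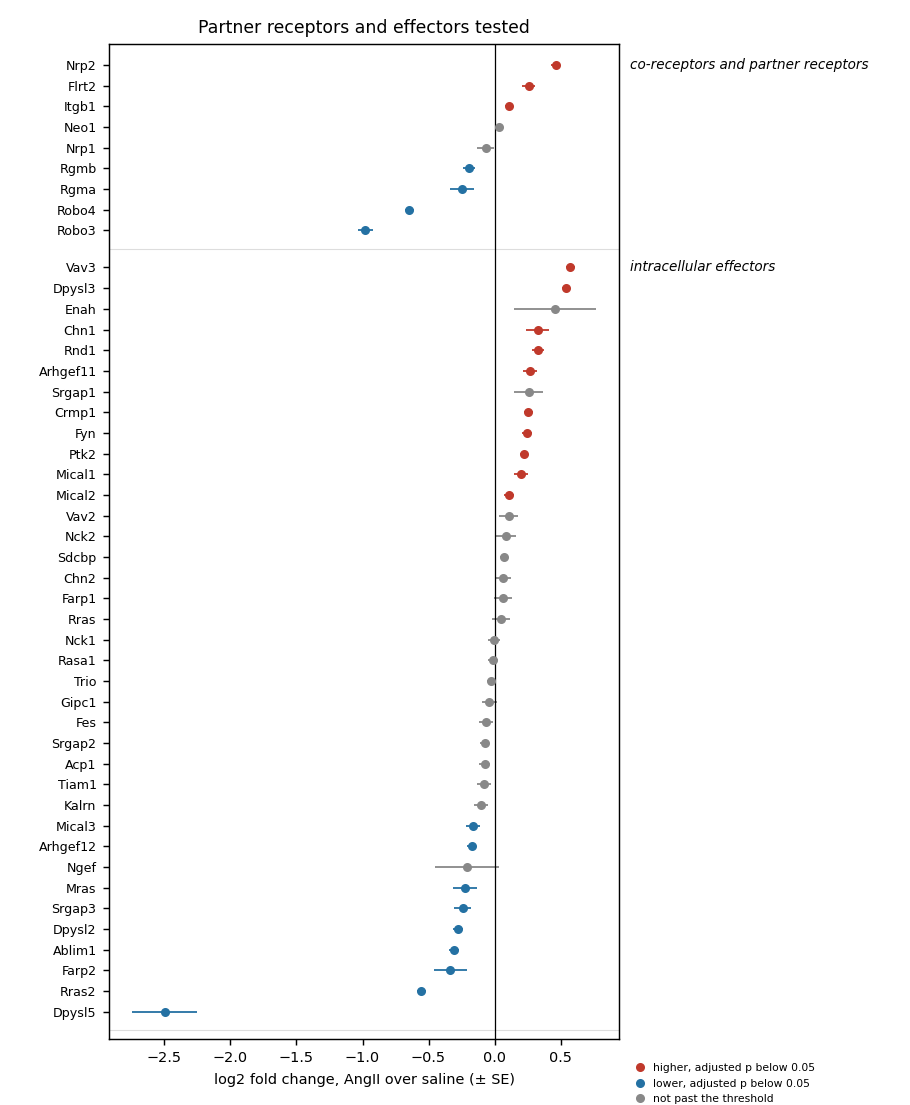
Log2 fold change of AngII over saline, with its standard error, for tested partner receptors and intracellular effectors. Red points rose and blue points fell at an edgeR adjusted p below 0.05 and grey points did not pass; Nrp2 stands highest and Robo3 lowest of the receptors, and Dpysl5 lowest of all at -2.50.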

How the data were processed

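RNA-seq of 6 samples was analysed from the table of estimated counts per gene that the authors deposited, in which 83% of values were whole. HISAT2 and mm10 are named per the submitters' processing notes, and versions and the counter are not given in the sources used here. Counts were rounded to whole numbers, scaled by TMM, filtered with edgeR's filterByExpr (minimum count 10, minimum total 15) and tested with edgeR 4.0.16 quasi-likelihood F-tests in R 4.3.3, AngII against saline, adjusted by Benjamini-Hochberg over all 12277 tested genes at 0.05. SE is the log2 fold change over the root of F, and CPM is TMM-scaled. Total counts of 21154724 to 25141992 per sample leave members below 1 CPM on few counts.

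Coordinates and exon lengths are from GENCODE M21 (GRCm38), in which 15997 of 17067 symbols and all members were found. Members with a mean of at least 1 CPM were named with values. Those called with an absolute log2 fold change of at least 0.5 and a mean of at least 5 CPM, and the leading member of each family per length, were given by sample. Of the effector and protease lists, up to 3 genes that rose and 3 that fell with the smallest p were named, and a protease of the list is not reported here. Values per sample of Sema4c and Dpysl5, and Crmp1 and Dpysl2, were added after their values were seen. Members and lists were chosen with earlier results of these data known. Alternatives were other scalings, filters and tools (DESeq2 1.42.0, limma-voom 3.58.1), a test against 1.5-fold, a replicate block and each sample left out. Removal of a trend on GC content and length and the longest-transcript length were added after seeing the data.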

Additional observations from a re-analysis of the deposited data

How the results depend on the processing

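Of 26 called guidance genes 19 kept their call in every alternative that tested them, other than the test against a 1.5-fold change, and 0 reversed. Of these 19, Slit1, Unc5c, Sema3c and Sema7a were not tested with the filter of 5 CPM, nor Slit1 and Unc5c with that of 1 CPM. Calls were lost by 5 members in DESeq2, 3 with the GC content and length trend removed and 4 without 1 sample. Against 1.5-fold, 1 guidance gene was higher and 3 lower (Sema6d, and Slit1, Epha7 and Plxnb2), beside 252 and 356 of all genes. On that test 0 partner receptors were higher and 1 lower, and 0 effectors higher and 1 lower. Partner receptors called higher numbered 5 with no filter beyond 1 count, and 3 to 5 with a sample left out. They numbered 5 without saline replicate 1, where Flrt1 and Flrt3 entered the test only through their higher AngII counts. With no filter 17 partner receptors were tested, in place of 9. Same-numbered saline and AngII samples had correlations of 0.0833, 0.0523 and 0.00764 of their deviations. With so few samples a group, such values cannot show whether same-numbered samples shared a day, litter or batch. The labels state no pairing. With the replicate block 7204 genes were called in place of 7072, 0 called members were lost, and saline replicates 2 and 3 did not correlate best with their own number. Members that did not pass and changed sign were Sema6c (0.0621 in limma-voom, 0.2447 with the GC content and length trend removed, -0.3377 to 0.177 with a sample left out), Sema3b (0.168, 0.0832 and -0.4679 to 0.1948), Sema3g (-0.7168 to 0.0711), Sema4f (-0.0385 to 0.2521), Efnb2 (-0.0073 to 0.094), Plxnc1 (-0.5519 to 0.0252), Ephb2 (-0.0447 to 0.117) and Efnb1 (0.0319 with the trend removed, -0.1423 to 0.0169). Among effectors the same held for Rras (-0.0215 to 0.0872), Rasa1 (-0.0343 to 0.0047), Nck1 (0.0048 with no filter beyond 1 count, -0.04 to 0.0357), Fes (0.0641 with the trend removed) and Gipc1 (0.1266 with the trend removed, adjusted p = 0.0467). Members below 1 CPM rest on few counts.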

Other observations

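Proteases that cut guidance proteins or their receptors were examined as well. Adamts1, Adam17 and Adam10 rose, and Mmp14 and Furin fell, in data where 57.6% of all tested genes were called, 29.0% higher and 28.6% lower. Adamts1, a secreted metalloprotease with thrombospondin repeats, rose from 83.9 ± 2.63 to 169 ± 3.18 CPM (SD, n = 3; log2 fold change 1.01, edgeR adjusted p = 4.6e-14). The membrane sheddases Adam17 and Adam10, which release ephrins and semaphorins among many other proteins, rose by 0.22 and 0.13 on the log2 scale. Mmp14, a membrane-bound metalloprotease, fell from 223 to 177 CPM (-0.34, edgeR adjusted p = 1.6e-07). Furin, which processes class 3 semaphorins, fell from 75.8 ± 0.461 to 65.8 ± 6.58 CPM (-0.20, edgeR adjusted p = 0.0025), and that call was lost with the GC content and length trend removed (0.108).

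The ratio of Nrp2 to Nrp1 per length was 13.1, 14.7 and 12.9 in the saline samples and 19.7, 19.6 and 19.3 in the AngII samples. The ratio of Robo4 to Unc5b per length was 43.7, 43.6 and 47.1 in saline and 25.2, 24.1 and 30.1 in AngII. Neither ratio overlapped between groups, while the ratio of Epha2 to its ligand Efna1 did (0.727 to 0.757 in saline and 0.626 to 0.802 in AngII).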
